A study of Drosophila melanogaster with 4 samples.

Results

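HP1c regions on chromosome 4 and on the heterochromatin scaffolds of Drosophila melanogaster were taken from a ChIP-seq map of adult head nuclei. The members were all enriched regions of the combined replicate-set list that lie on chromosome 4, on the 6 scaffolds 2LHet, 2RHet, 3LHet, 3RHet, XHet and YHet, or on U. There were 232 such regions of 7116 in all, 82 on chromosome 4 and 150 on the 7 scaffolds. The 150 comprised 99 on the 6 Het scaffolds and 51 on U. The series held 2 HP1c ChIP libraries and 2 input libraries, and each input was the control of the ChIP library with the same number. Every library came from Oregon-R flies of wild-type genotype, of both groups alike, collected as mixed adults from population cages, with heads separated by sieving and fixed with formaldehyde. No treatment or mutant was compared. The labels do not say that the libraries came from separate fly collections, so the spread between them may be technical. A head holds several cell types, and strong binding in few cells cannot be told apart from weak binding in many.

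HP1c belongs to the heterochromatin protein 1 family, whose members carry a chromodomain, a fold that binds methylated histone H3, and a chromoshadow domain, through which they bind each other and other proteins. The family's founder in the fly, HP1a, is concentrated on chromosome 4 and around centromeres, whereas HP1c is known mainly from euchromatin. Chromosome 4 is a very small autosome whose genes lie among repeats and are expressed despite a heterochromatic surrounding. The Het scaffolds are assembled pieces of pericentromeric heterochromatin named after the arm they belong to, and U joins pieces that were assigned to no arm.

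Each region carries a score that the authors deposited on an unstated scale. Scores were therefore compared within a list, and score percentile means the position of a score in its whole list, with 100 the highest. Positions are on FlyBase release 5. Regions of a single replicate are called clusters. Replicate 1 held 6008 clusters and replicate 2 held 5764. Read numbers are not part of the lists, and the depth behind a cluster is unknown. Whether part of these sequences could be mapped by reads was not tested, and lengths below include any part that could not.

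Chromosome 4 carried HP1c clusters about as densely as the large arms, and the scaffolds carried far fewer. It held 62 clusters in replicate 1 and 63 in replicate 2 on 1.35 Mb, or 46.2 ± 0.523 per Mb (SD, n = 2). The scaffolds held 95 and 102 clusters on 19.3 Mb, or 5.10 ± 0.256 per Mb (SD, n = 2). The large arms (X, 2L, 2R, 3L and 3R) held 48.1 ± 1.50 per Mb (SD, n = 2). Among them X was the densest, with 59.6 and 57.2 per Mb in replicates 1 and 2, and 2L the sparsest, with 43.7 and 42.0. Chromosome 4, with 45.9 and 46.6, lay within that range. The density of chromosome 4 over that of the arms was 0.962 ± 0.0408, and that of the scaffolds was 0.106 ± 0.00863 (SD, n = 2). Both libraries lay below 1 in both ratios, with the arms pooled. For chromosome 4, replicate 2 turned above 1 when clusters within 500 bp were merged (0.914 and 1.02 in replicates 1 and 2) and in the upper 50% by score (0.843 and 1.11). For the ratios as counted, the exact sign-flip permutation test over the 2 libraries gave a two-sided p = 0.5 for each, the smallest that 2 libraries allow. Chromosome 4 was 9.08 ± 0.354 times as dense as the scaffolds (SD, n = 2; exact permutation p = 0.5).

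The scaffolds were not alike. The 6 Het scaffolds together held 7.16 ± 0.229 clusters per Mb and U held 3.18 ± 0.281 (SD, n = 2). XHet had 4 clusters in replicate 1 and 8 in replicate 2 on 0.204 Mb. That is 19.6 and 39.2 per Mb, the only scaffold above 10 per Mb in either library and the one on which the libraries differed most. The other Het scaffolds lay between 2.88 per Mb on YHet and 9.39 per Mb on 3LHet. YHet had a single cluster in each library.

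**Figure D1:**
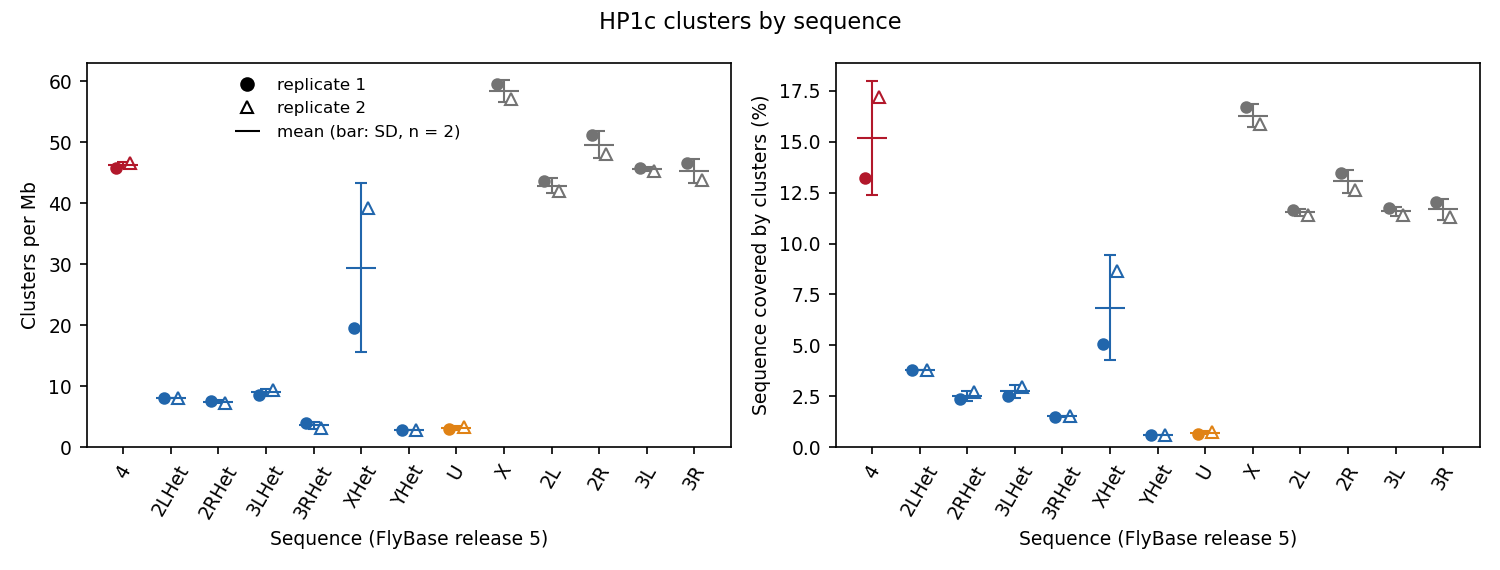
Clusters per Mb (left) and percent of each sequence covered by clusters (right) for chromosome 4, the 7 scaffolds and the 5 large arms; circles are replicate 1, triangles replicate 2, and bars the mean ± SD of 2 libraries. Chromosome 4 stands among the large arms in density, while its covered length in replicate 2, 17.2%, lies above every arm. XHet stands between the arms and the other scaffolds. The 2 libraries differ most on XHet and, for covered length, on chromosome 4.

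By covered length the libraries disagreed on chromosome 4. Clusters covered 13.2% of it in replicate 1 and 17.2% in replicate 2, against 13.0% and 12.5% of the large arms. Of the 6 Het scaffolds, 2.22% and 2.56% were covered. U was covered to 0.673% and 0.768%. By this measure chromosome 4 stood at 1.20 ± 0.258 times the arms (SD, n = 2), above 1 where the ratio of cluster numbers was below it. The difference on chromosome 4 came with width, since the numbers of clusters were 62 and 63. In replicate 1 the median width there was 2294.5 bp, and in replicate 2 it was 3321 bp, against 2272 and 2281 bp on the large arms.

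Of the 10 strongest regions of chromosome 4, 7 stood in the upper 25% of both libraries, and 9 ranked higher in replicate 2. The highest-scoring one, 3898 bp from 978074 to 981971, had a score of 3.13 in the replicate set. It scored 2.41 in replicate 1 and 3.67 in replicate 2, at percentiles 89.8 and 98.2. Second came the one from 86515 to 91066, with a score of 2.81 and percentiles 89.6 and 95.7. The third, from 886627 to 890488 with a score of 2.73, stood at percentiles 94.5 in replicate 1 and 89.5 in replicate 2, the reverse order. It was the one exception among the 10 highest.

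For some of these 10 the libraries differed widely. The region from 807243 to 810691 scored 0.907 in replicate 1 and 3.39 in replicate 2, at percentiles 47.9 and 96.7. The region from 463465 to 467872 stood at percentiles 62.2 and 93.9, and that from 333456 to 336509 at 54.5 and 89.8. These 3 were middling clusters in replicate 1 and strong ones in replicate 2. The other 4, which start at 1046717, 225626, 713959 and 148274, stood between percentiles 82.2 and 85.6 in replicate 1 and between 88.6 and 93.7 in replicate 2. All 10 were above the median width of the list (2247.5 bp), from 3054 bp to 8048 bp.

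At the other end, the 3 lowest scores of chromosome 4 each met a cluster of 1 library. The region from 1133116 to 1134478 scored 0.0650 and met a cluster of replicate 2 at percentile 1.09. That from 177745 to 179185 scored 0.108 and met a cluster of replicate 1 at percentile 0.416. The lowest of all, from 108769 to 110583, scored 0.0514 and had a cluster in replicate 2 (score 0.284, percentile 3.80). Replicate 1 lists the same place, from 108830 to 110545, as depleted, with a score of -0.0395. It was the single depleted region of any list on chromosome 4 or the scaffolds, and the libraries were opposite in sign there.

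Wide regions made up a larger share on chromosome 4 and on the Het scaffolds than on U. Of the replicate-set regions, 18.3% on chromosome 4 (15 of 82) and 19.2% on the 6 Het scaffolds (19 of 99) were wider than 5 kb. On U it was 3.92% (2 of 51), and on the large arms 5.96% (410 of 6884). All of these wide regions overlapped a cluster of both replicates. In the replicate lists, clusters wider than 5 kb made up 11.3% and 28.6% on chromosome 4, 16.9% and 23.5% on the Het scaffolds and 5.37% and 5.14% on the large arms, in replicates 1 and 2. The share on chromosome 4 and on the pooled Het scaffolds thus exceeded that of the pooled arms in both libraries. XHet and YHet, which held few clusters, had 0 regions or clusters wider than 5 kb in every list. Among the arms X had the highest share, 8.53% and 7.80% in replicates 1 and 2. The median score of wide regions was 1.89 on chromosome 4, 1.73 on the Het scaffolds and 1.80 on the arms.

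The widest region of chromosome 4 was 8449 bp wide, from 950356 to 958804, and scored 2.08, at percentiles 75.8 and 84.3 in replicates 1 and 2. The one from 1046717 to 1054764 over 8048 bp was also among the 10 strongest. The third widest, from 1275390 to 1283252 over 7863 bp, was listed as 1 cluster of 7809 bp in replicate 2, and 3 clusters of replicate 1 lay in it. Its replicate-set score of 0.932 was well below that of the other 2.

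In the replicate set, score went with width on chromosome 4 and less so on U. Over the 82 regions of chromosome 4 the rank correlation of width and score was 0.802, over the 99 of the Het scaffolds 0.596, over the 51 of U 0.258, and over the 6884 of the large arms 0.762. These are descriptions across regions of shared libraries. In replicate 1 the correlation on U was -0.0552 over 30 clusters, and in replicate 2 it was 0.713 over 34, so the libraries differed. On chromosome 4 it was 0.785 and 0.758, and on the Het scaffolds 0.576 and 0.785. In replicate 2, U thus stood close to chromosome 4. Of the regions of U, 33.3% were between 1900 and 2200 bp wide, against 11.0% on chromosome 4, 9.09% on the Het scaffolds and 22.1% on the arms. In replicates 1 and 2 that share was 33.3% and 41.2% on U (10 of 30 and 14 of 34 clusters), beside 26.4% and 26.8% on the arms. It was 19.4% and 4.76% on chromosome 4 and 21.5% and 11.8% on the Het scaffolds, so it varied between libraries on chromosome 4 and the Het scaffolds.

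**Figure D2:**
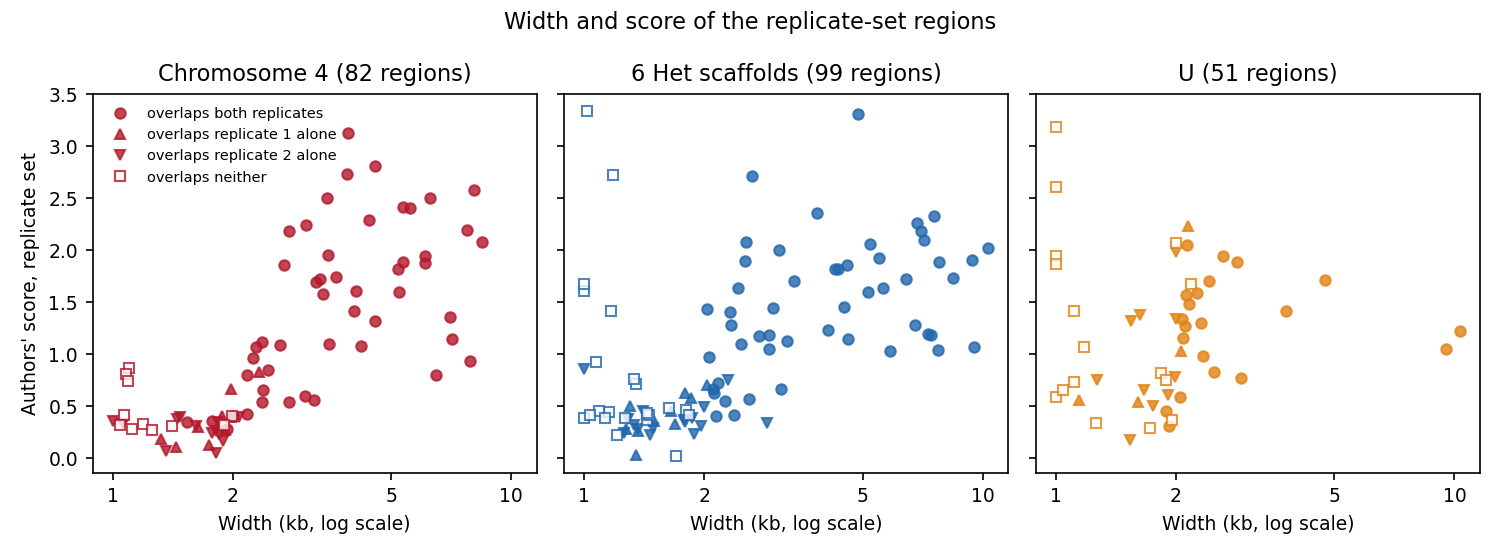
Width (kb, log axis) against the authors' score for the 82 replicate-set regions of chromosome 4, 99 of the 6 Het scaffolds and 51 of U; the symbol shows which replicates a region overlaps. Regions found in both replicates (circles) rise in score with width on chromosome 4, while open squares of about 1 kb with high scores, found in neither replicate, stand apart on the Het scaffolds and U.

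Regions lay along the whole of chromosome 4 from 61129 to 1348785. Cut into 5 equal lengths, it held 12, 20, 13, 17 and 20 of them, in order. The longest stretch with no region, from 719300 to 807242, was 87.9 kb long in the replicate set. It was empty in both libraries as well, over 89.1 kb in replicate 1 and 87.8 kb in replicate 2, and a region of the 10 strongest flanked it on each side. The longest other gaps between regions of the replicate set were 47.8 and 45.8 kb. Of the chromosome 4 clusters, 43.5% in replicate 1 and 34.9% in replicate 2 had a neighbour within 5 kb, against 63.2% and 62.6% of those on the large arms. Both libraries were lower on chromosome 4, by more than the spread between them, and this difference was not tested.

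On 3RHet, XHet, 2LHet and YHet long stretches held no region, though XHet, 2LHet and YHet had only 8, 6 and 4 regions. All 14 regions of 3RHet lay at or beyond 1704935, and the first 67.7% of the scaffold was empty in each of the 3 lists. The 8 regions of XHet ended at 85918, and the following 118.2 kb, 57.9% of it, were empty. On 2LHet the last 168.6 kb (45.7%) were empty, and on YHet 274.6 kb (79.1%) lay empty between the first and the second region. On 2RHet and 3LHet the longest empty stretches were shorter shares, 14.8% and 20.8%, and each of 5 equal lengths held regions. U joins pieces assigned to no arm, so order and distance along it need not be those of a chromosome. Its 5 equal lengths held 7, 9, 11, 11 and 13 regions, in order. The longest empty stretch of U was 17.7% of its length in replicate 1 and 8.90% in replicate 2. Of the replicate-set regions, 61.6% on the Het scaffolds and 11.8% on U had a neighbour within 5 kb. Of the clusters it was 35.4% and 45.6% on the Het scaffolds in replicates 1 and 2, and 16.7% and 20.6% on U, so the contrast was smaller in the libraries.

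Of the 150 scaffold regions, 28 lay in the upper 25% of the list by score and met a cluster in both libraries, 8 each on 2RHet and 3LHet, 5 on U, 3 on 3RHet, 2 each on 2LHet and XHet and 0 on YHet. That is 18.7% of the scaffold regions, beside 24.8% of all regions, and 22 of 82 (26.8%) were such regions on chromosome 4. The strongest was on 3LHet from 1394304 to 1399169, and its 4866 bp scored 3.31, rank 140 of the whole list. It scored 2.79 in replicate 1 and 3.78 in replicate 2, at percentiles 94.5 and 98.8. That score was above the 3.13 of the strongest region of chromosome 4. On XHet, the region from 83280 to 85918 scored 2.71 and stood at percentiles 86.5 and 94.7.

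On 3RHet the highest score, 2.35, belonged to the region from 1822766 to 1826606 (percentiles 86.9 and 84.9). The one from 1805158 to 1813570 was the widest there, at 8413 bp, with percentiles 64.3 and 77.4. On 2RHet the widest, of 10300 bp, ran from 470564 to 480863 and scored 2.02. Replicate 2 lists it as a cluster of 10042 bp, and replicate 1 has 2 clusters in it. The highest 2RHet score among regions in both libraries, 2.18, was that of 3193370 to 3200383 (percentiles 81.6 and 87.5). On 2LHet the regions from 30711 to 35929 and from 166297 to 175714 stood at percentiles 71.2 and 72.6 in replicate 1. In replicate 2 they stood at 85.3 and 86.5.

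The single YHet region in both libraries, from 304288 to 306316, scored 1.43 (percentiles 70.1 and 57.1). On U the highest score in both libraries, 2.05, was that of 5540767 to 5542904 (86.6 and 70.0). The region of U from 7530986 to 7533131 scored 2.23, met a replicate 1 cluster at percentile 98.0 and met none in replicate 2. The widest region of U, from 3436337 to 3446640 over 10304 bp, scored 1.22 and took in 2 clusters of each library.

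The next question was how many of these regions were listed in both libraries. On chromosome 4, 49 of 82 met a cluster in both, or 59.8% (exact 95% interval 48.3 to 70.4), beside 71.3% of all 7116 regions. On the Het scaffolds it was 51 of 99 (51.5%, 41.3 to 61.7) and on U 21 of 51 (41.2%, 27.6 to 55.8). The large arms gave 71.9% (70.8 to 73.0). Replicate 1 met 58 of the 82 chromosome 4 regions (70.7%), beside 81.9% of all regions, and replicate 2 met 62 (75.6%), beside 78.6%. The intervals cover the number of regions alone. The replicate set was made from these libraries, so its overlap with them describes how it was made.

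Regions found in 1 library alone leaned to replicate 2 on these sequences and to replicate 1 on the arms. Chromosome 4 had 9 regions met by replicate 1 alone and 13 by replicate 2 alone. The Het scaffolds had 10 and 16, though 3RHet went the other way with 4 and 2, and U had 4 and 10. On the large arms the numbers were 733 and 479 (10.6% and 6.96%), and over all regions the shares were 10.6% and 7.28%. Those met by both were wider than the rest, with a median of 3487 bp on chromosome 4, 4100 bp on the Het scaffolds and 2319 bp on U. On the arms it was 2502 bp.

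**Figure D3:**
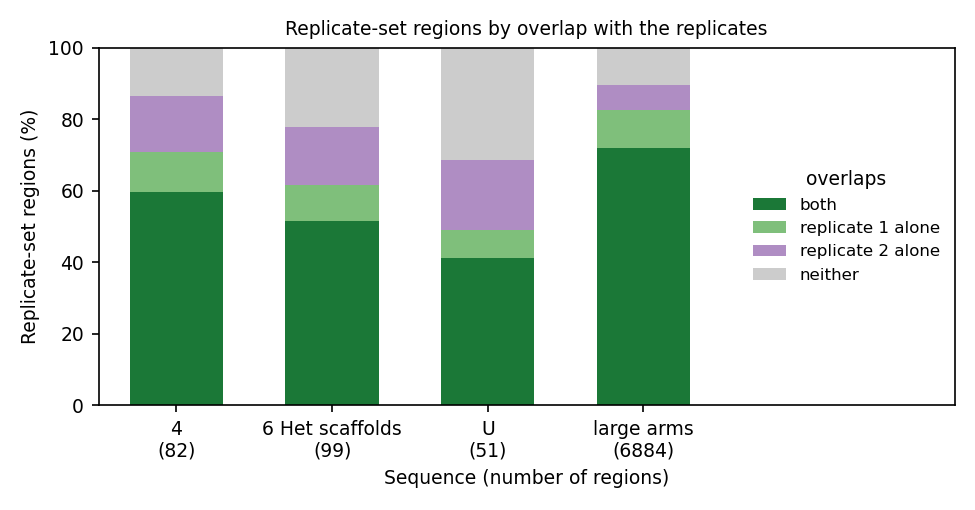
Percent of replicate-set regions that overlap a cluster of both replicates, of 1 replicate alone or of neither (at least 1 bp), on chromosome 4, the 6 Het scaffolds, U and the large arms. The share found in both is 59.8%, 51.5%, 41.2% and 71.9% in that order, and the share found in neither is 13.4%, 22.2%, 31.4% and 10.5%.

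Regions met by neither library were frequent on the scaffolds, with 38 of 150 (25.3%) beside 10.8% of the whole list, and 11 of 82 on chromosome 4 (13.4%). They were narrow, with a median of 1178.5 bp on the scaffolds and 1119 bp on chromosome 4. The narrowest cluster of either replicate was 1301 bp wide, and 23 of the 38 were narrower than that. On chromosome 4 none of the 11 was in the upper 25% by score, and their scores ran from 0.268 to 0.866. On the scaffolds 9 were, on the large arms 4 of 721. Among the 9 were the highest score of 3LHet, 3.34 at 678009 to 679022, that of 2RHet, 2.72 at 2832608 to 2833790, and those of U, 3.19 at 1689488 to 1690488 and 2.60 at 5023007 to 5024007. These 4 regions were 1001 to 1183 bp wide.

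Compared directly, clusters of replicate 2 were shared less on chromosome 4 and the Het scaffolds than in the whole list, and on U the shares were lower in both directions. On chromosome 4, 53 of the 62 clusters of replicate 1 overlapped replicate 2 (85.5%), beside 86.5% of all. Of the 63 clusters of replicate 2, 47 overlapped replicate 1 (74.6%; exact 95% interval 62.1 to 84.7), beside 90.1% of all. On the Het scaffolds the shares were 84.6% and 77.9%, and on U 76.7% and 61.8%. The 16 chromosome 4 clusters found in replicate 2 alone were 1598.5 bp wide at the median and stood at a median percentile of 15.4, against 15.9 for such clusters on the large arms. Of the 63 chromosome 4 clusters of replicate 2, 5 were also missing from the replicate set, beside 0.954% of all replicate 2 clusters, and of the 62 chromosome 4 clusters of replicate 1 the number was 0, beside 0.832% of all.

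Pairs of clusters, 1 in each library, showed how each place ranked in both. A pair was kept where each cluster met exactly 1 partner. Of the 42 pairs of chromosome 4, 6 had the higher score percentile in replicate 1 (14.3%, 5.43 to 28.5), beside 61% of all 4899 pairs. On the 6 Het scaffolds it was 9 of 48 (18.8%, 8.95 to 32.6) and on U 9 of 19 (47.4%, 24.4 to 71.1). The large arms lay between 55.5% on 2L and 68.0% on X. Chromosome 4 and the Het scaffolds thus ranked higher in replicate 2, the arms ranked higher in replicate 1, and U was divided. The intervals cover the number of pairs, and with 1 library on each side this difference has no replicate and was not tested.

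The median difference, replicate 1 minus replicate 2, was -11.8 percentile points on chromosome 4, -12.1 on the Het scaffolds and -5.16 on U. On the large arms it was 2.50, with the single arms between 1.02 and 4.26. Width moved with it. On chromosome 4, 34 of 42 pairs (81.0%) were wider in replicate 2, and on the Het scaffolds 35 of 48 (72.9%), beside 39.5% of all pairs. The median pair of chromosome 4 was 2695.5 bp wide in replicate 1 and 3706.5 bp in replicate 2. On the arms the widths were 2374 and 2328 bp. Higher in replicate 1 were 3 of 18 pairs on 2RHet, 2 of 17 on 3LHet and 1 of 6 on 3RHet, so the 3 Het scaffolds with the most pairs had the same lean. XHet, with 2 of 4, did not show it. Within regions met by both libraries, clusters of replicate 1 covered 87.0% of the median chromosome 4 region and those of replicate 2 covered 99.9%. The same medians were 80.9% and 93.7% on the Het scaffolds, 94.9% and 91.1% on U and 97.9% and 96.4% on the arms.

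**Figure D4:**
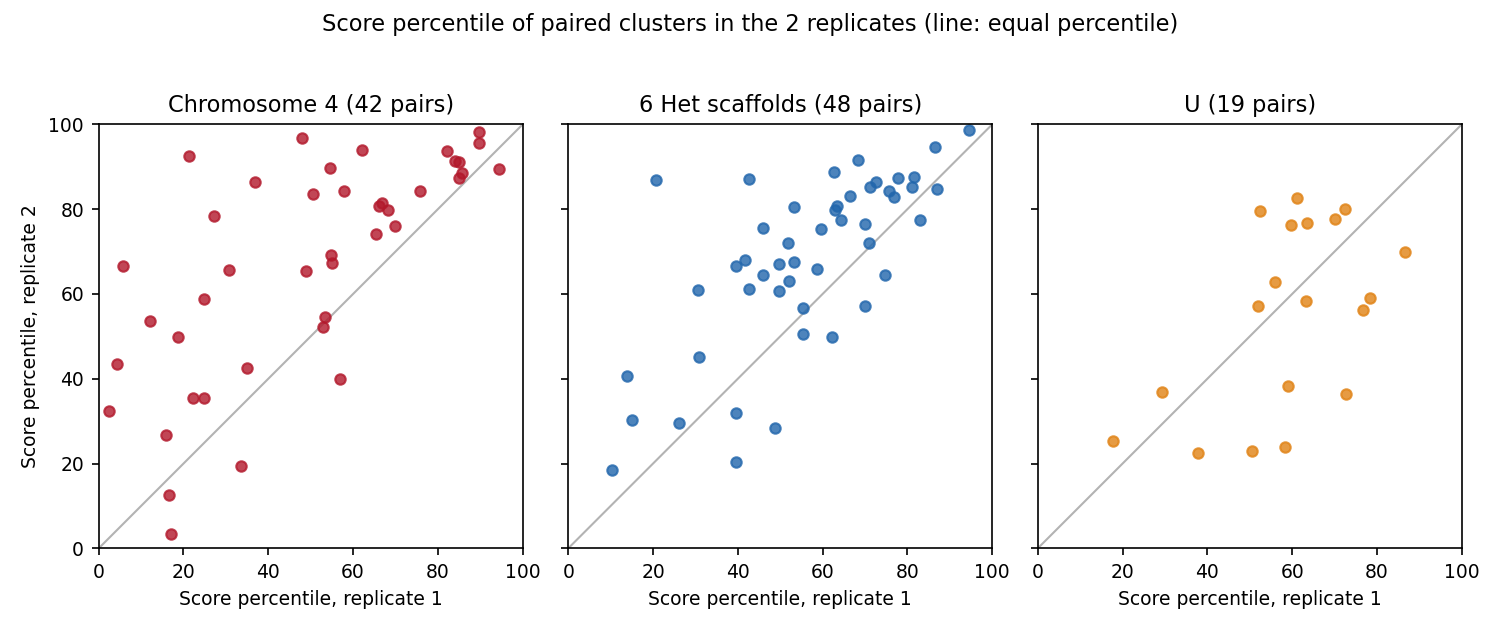
Score percentile of paired clusters in replicate 1 (x axis) and replicate 2 (y axis) for chromosome 4 (42 pairs), the 6 Het scaffolds (48) and U (19); the line marks equal percentile. On chromosome 4 and the Het scaffolds 36 and 39 pairs lie above the line, and on U the points lie on both sides.

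The widest split on chromosome 4 was at 1143414 to 1145531 in replicate 1, where the score was 0.510 and the percentile 21.3. The replicate 2 cluster there scored 3.03, at percentile 92.6. The pair at 486561 to 489827 stood at percentiles 5.68 and 66.7, and that at 213588 to 215662 at 27.1 and 78.3. All 3 were low in replicate 1 and above the median in replicate 2. On the scaffolds, the 3LHet pair at 456267 to 460146 stood at 20.7 and 86.8, and the 2RHet pair at 196520 to 198922 at 42.6 and 87.0. The third largest difference, on U at 9094146 to 9096414, went the other way, with percentiles 72.8 and 36.5.

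The lean was not limited to weak clusters. Among pairs whose mean percentile was above 50, 2 of 27 on chromosome 4 and 6 of 39 on the Het scaffolds ranked higher in replicate 1, against 1685 of 2672 on the large arms. Separately, all pairs, with no limit on percentile, were counted in the 1 Mb nearest the centromere on every large arm. That comparison was added once these values had been seen. There 35 of 99 pairs (35.4%, 26.0 to 45.6) ranked higher in replicate 1, against 62.4% in the rest of the arms. These stretches differed among themselves, with 4 of 19 on 2L, 2 of 17 on 2R, 0 of 6 on 3L, 9 of 17 on X and 20 of 40 on 3R. The proximal stretches of 2L, 2R and 3L thus leaned to replicate 2, as chromosome 4 did.

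**Figure D5:**
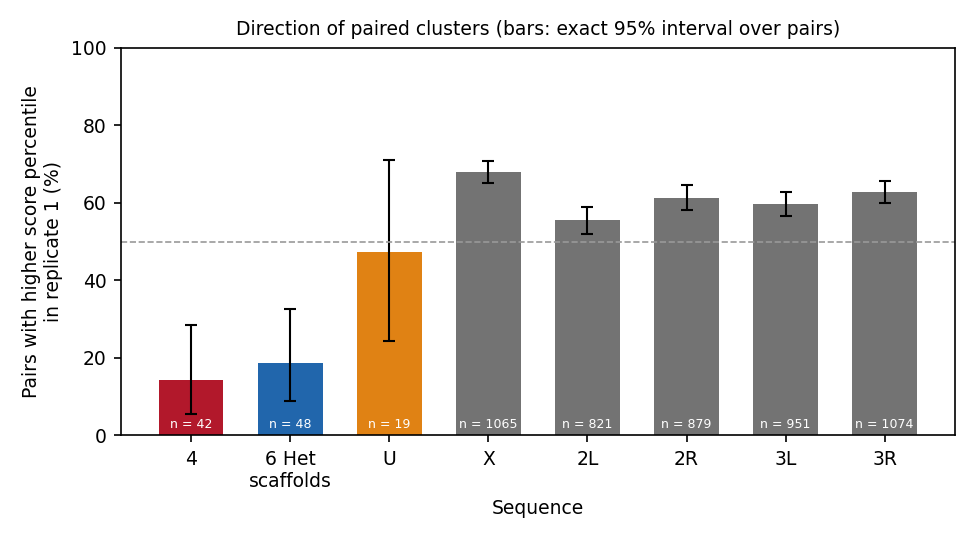
Percent of paired clusters with the higher score percentile in replicate 1, by sequence, with exact 95% intervals over pairs; the dashed line marks 50%. Chromosome 4 (14.3%) and the 6 Het scaffolds (18.8%) lie below the line, U (47.4%) near it and the 5 arms (55.5% to 68.0%) above it.

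Set against gene number, chromosome 4 had many clusters. A RefSeq table of Release 6, another build from which no coordinate was used, lists 80 protein-coding genes on chromosome 4. That makes 77.5 and 78.8 clusters per 100 genes in replicates 1 and 2. The large arms had 42.3 and 40.4 with 13842 genes, from 36.8 ± 1.66 on 2R to 59.6 ± 1.77 on X (SD, n = 2). Chromosome 4 was above every large arm in both libraries by this count. Clusters are not assigned to genes here, and a cluster can span several. Whether each arm has the same extent in both releases was not checked, so genes and clusters may cover unlike stretches.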

How the data were processed

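HP1c ChIP DNA and input DNA of adult heads were sequenced. The submitters' processing notes name Bowtie 0.12.7 as aligner, and per the file headers the build is FlyBase release 5. How regions were called, at which threshold, and how both replicates were joined into the replicate set is not stated in the labels or headers. Each region has a signed score deposited by the authors, above 0 where named enriched and below 0 where named depleted. From these 3 lists, numbers, widths, percentiles of score, gaps and overlaps (at least 1 bp) were computed per sequence in Python 3.11.15 (pandas 2.3.3, numpy 2.4.6, scipy 1.17.1), and plots were drawn in matplotlib 3.10.9. Shares carry exact (Clopper-Pearson) 95% intervals, which cover counting error only. Means and SDs are over 2 ChIP libraries, and a two-sided exact sign-flip permutation test over libraries cannot go below p = 0.5. Depth is unknown, and the inputs have no list of their own.

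Regions are named by this rule. On chromosome 4 they are the 10 highest scores, 3 widest and 3 lowest scores. On each scaffold they are the 3 highest scores and the widest. Added to these are the 3 largest percentile differences between paired clusters on chromosome 4 and on the scaffolds, and scaffold regions of the upper 25% by score found in both replicates. The members, lists and comparisons were chosen with earlier results of these data known. The overlap routine was tested on simulated data. Alternatives were other score limits, overlaps, merging within 500 bp, base pairs for numbers, omission of U and of each replicate. No genome of release 5 was used here, so no gene or sequence is assigned to a region.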

Additional observations from a re-analysis of the deposited data

Results flagged for a closer look

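Replicate 1 lists 1 depleted region on chromosome 4, from 108830 to 110545, with a score of -0.0395, and no comparison above of enriched clusters uses it. Replicate 2 lists an enriched cluster there, from 108741 to 110593, with a score of 0.284, and the replicate set an enriched region with a score of 0.0514. It was picked out because a signal of the opposite sign stands in data outside the main measurement. The cause was not tested.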

How the results depend on the processing

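Of 61 alternatives over 20 results, 39 stayed within the SD between replicates or, for shares, within the exact 95% interval, and 22 moved beyond it. Among the 39 is every omission of 1 library, which with 2 libraries cannot move beyond that SD. The 2 differences over pairs were judged against the SD over pairs. None of these results has a test that can pass a threshold. For chromosome 4 over the large arms, base pairs gave 1.20 and the replicate-set list (added after seeing the data) 1.05, both above 1, against 0.962. For the scaffolds over the arms the values were 0.124 in the upper 50% by score, 0.1197 by base pairs, 0.149 without U and 0.134 in the replicate-set list, against 0.106. For chromosome 4 over the scaffolds they were 7.82, 9.94 and 6.46 under the first 3 of these. The upper 50% by score covered 10.4% of chromosome 4 and 1.07% of the scaffolds, and without U the scaffolds were covered to 2.39%. Median scaffold width was 2033 bp in the replicate-set list and 2510.5 bp among shared clusters, and the median percentile of shared clusters on chromosome 4 was 62.3. In the upper 50% by score, 92.9% of chromosome 4 regions and 69.3% of scaffold regions met both replicates. Among scaffold regions as wide as the narrowest replicate cluster it was 59.5%. In that upper 50%, 96.4% and 100% of chromosome 4 clusters of replicates 1 and 2 met the other replicate, and 94.2% and 90.5% of scaffold clusters.

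Leaving out 1 library always stays within the SD of 2. Those values lay between 0.933 and 0.991 for chromosome 4 over the arms, 0.1000 and 0.112 for the scaffolds over the arms, and 8.83 and 9.33 for chromosome 4 over the scaffolds. Covered shares ran from 13.2% to 17.2% and from 1.41% to 1.63%. Median widths ran from 2294.5 to 3321 bp and from 2240 to 2328 bp, and median percentiles from 43.1 to 58.7 and from 52.3 to 61.8, each for chromosome 4 and then the scaffolds. Best-overlap pairs gave median differences on chromosome 4 of -981 bp and -14.5 points, against -586 bp and -11.8 points. With these pairs, 13.2% on chromosome 4, 16.4% on the Het scaffolds and 39.1% on U ranked higher in replicate 1. No paired analysis was possible because neither input carries values in the lists used here. What depth limits could not be examined, since read numbers are not in the lists.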

Other observations

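Exact ties of score, to 9 decimals, made up a larger share on U than on chromosome 4, the 6 Het scaffolds pooled or the large arms in the replicate set and in both libraries. In the replicate set 14 of 51 regions of U (27.5%) shared their score with another region, against 8 of 82 on chromosome 4 (9.76%), 12 of 99 on the Het scaffolds (12.1%) and 588 of 6884 on the large arms (8.54%). Among the single Het scaffolds, the share was above that of U where few regions were listed, with 2 of 4 on YHet and 2 of 6 on 2LHet. In replicate 1 the shares were close, with 16.7% on U (5 of 30), 14.5% on chromosome 4, 13.8% on the Het scaffolds and 13.0% on the arms. In replicate 2 they were 23.5% (8 of 34), 9.52%, 5.88% and 10.3% in the same order. The difference rests on few clusters and was not tested.

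Clusters left out of the replicate set included a strong one. On U, the replicate 1 cluster from 8684871 to 8686231 scored 2.39, at percentile 89.4, and overlapped no region of the replicate set. The other 8 clusters of chromosome 4 and the scaffolds that were left out stood at percentile 25.6 or below.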
